A study of Mus musculus with 8 samples.

Results

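The 8 inflammatory genes described here, of a kind that regulatory T cells (Tregs) usually hold low, were measured in splenic Tregs with and without the coactivator SRC-3. They were taken by symbol from a fixed set: the type 1 genes Ifng, Tnf and Tbx21, the type 17 genes Il17a, Il17f, Il21 and Il22, and Csf2. All 8 were found, among 55487 genes in each table. The study compared C57BL/6 Tregs labelled SRC-3KO with control Tregs, in mice without a tumor and in tumor-bearing mice, with 2 libraries in each of 4 groups. Cells were sorted for GFP, by the labels of all libraries but control replicate 1 without a tumor. They were sequenced from SMART-Seq v4 libraries, a method that copies whole transcripts from very small RNA inputs. The question, per the series text, was how SRC-3KO Tregs differ from control Tregs in gene expression, with an eye to their anti-tumor effects.

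The control libraries were not all named alike. Control replicate 1 without a tumor is named WT, and GFP is missing from its source label, so its cells may have been sorted differently. Control replicate 2 without a tumor and both tumor controls are named for Foxp3-Cre, a recombinase driven by the Treg factor Foxp3. The names of both SRC-3KO libraries without a tumor include Tam1, a term that the sources used here do not explain, so anything it stands for cannot be told apart from genotype. The labels give no age, no tumor type and no word on whether replicates came from separate animals. The p-values therefore measure only the spread between these samples, which may be technical.

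Type 1 responses are steered by T-bet, the transcription factor encoded by Tbx21, which drives Ifng, the gene for the macrophage-activating cytokine IFN-gamma. Type 17 responses centre on Il17a and Il17f, the genes for cytokines that call neutrophils to epithelia. Tregs restrain both kinds of response, can carry T-bet themselves, and usually make little of these cytokines. Nuclear receptors recruit the coactivator SRC-3, which Ncoa3 encodes.

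The promoters of the 4 genes that separated SRC-3KO from control libraries in the tumor state and passed the minimum level are shown first, because Il17a, Il17f and Csf2 were lower there and Tnf was higher. Each run is the 250 bases before the RefSeq transcript start (GRCm38.p6), written 5' to 3' on the gene's strand. Capitals mark AGGTCA, a half-site bound by nuclear receptors, and GGAAA, the core bound by NFAT, on either strand.
Il17a (chr1:20730655-20730904, plus strand): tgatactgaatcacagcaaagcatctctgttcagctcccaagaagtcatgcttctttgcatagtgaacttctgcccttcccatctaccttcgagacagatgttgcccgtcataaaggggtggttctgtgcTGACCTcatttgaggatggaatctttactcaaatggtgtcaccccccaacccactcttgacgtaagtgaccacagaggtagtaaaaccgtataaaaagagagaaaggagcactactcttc
Il17f (chr1:20784271-20784520, minus strand): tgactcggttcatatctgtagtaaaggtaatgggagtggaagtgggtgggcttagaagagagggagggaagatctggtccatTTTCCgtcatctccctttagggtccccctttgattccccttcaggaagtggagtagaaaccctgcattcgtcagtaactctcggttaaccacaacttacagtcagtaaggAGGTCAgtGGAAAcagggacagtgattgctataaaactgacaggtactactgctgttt
Csf2 (chr11:54249900-54250149, minus strand): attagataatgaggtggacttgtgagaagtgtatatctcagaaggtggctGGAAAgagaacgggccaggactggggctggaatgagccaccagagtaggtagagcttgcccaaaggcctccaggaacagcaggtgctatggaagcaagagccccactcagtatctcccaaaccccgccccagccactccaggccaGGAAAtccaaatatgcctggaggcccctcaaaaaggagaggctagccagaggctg
Tnf (chr17:35202008-35202257, minus strand): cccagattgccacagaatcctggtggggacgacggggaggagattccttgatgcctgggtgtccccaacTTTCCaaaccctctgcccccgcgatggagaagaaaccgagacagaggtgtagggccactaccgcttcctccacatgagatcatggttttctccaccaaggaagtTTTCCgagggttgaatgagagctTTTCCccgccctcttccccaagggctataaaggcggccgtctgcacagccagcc
The letters AGGTCA or their complement occurred in 14% of 32851 promoter windows of that length and in 2 of the 8 member windows, Il17a and Il17f. GGAAA occurred in 55.6% of all windows and in 7 member windows, that of Il17a being without it. The AP-1 letters TGANTCA were found in the Il17a window (6.75% of all windows), the GAS letters TTCNNNGAA of STAT binding in the Ifng window (7.02%), and the T-box letters GGTGTGA in none of the 8 (3.33%). These matches describe the letters in the windows and show no binding. The Csf2 window starts from a RefSeq start upstream of the GENCODE gene end, and the Il17f window lies inside the longer GENCODE gene.

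In the mouse genome (mm10, GENCODE vM21), Il17a (ENSMUSG00000025929, chromosome 1, 20730905 to 20734496, plus strand) and Il17f (ENSMUSG00000041872, chromosome 1, 20777146 to 20790617, minus strand) are neighbours with 42.65 kb between them. Il22 (ENSMUSG00000074695, chromosome 10, 118204942 to 118210047, plus strand) and Ifng (ENSMUSG00000055170, chromosome 10, 118441046 to 118445892, plus strand) lie 231 kb apart. Tbx21 (ENSMUSG00000001444, 97098071 to 97115331) and Csf2 (ENSMUSG00000018916, 54247271 to 54249667) are both on the minus strand of chromosome 11. Tnf (ENSMUSG00000024401) lies at 35199381 to 35202007 on the minus strand of chromosome 17, and Il21 (ENSMUSG00000027718) at 37222759 to 37232636 on the minus strand of chromosome 3.

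The libraries without a tumor were available as read counts, 24159217 to 31075452 per library, and are given as CPM, counts scaled to the library total. The tumor libraries were available as FPKM, fragments scaled to transcript length and library size, and their depth is unknown. No level is compared between the tables. Changes are given as log2 SRC-3KO/control with a standard error (SE), from edgeR's quasi-likelihood test on counts without a tumor and from limma on log2(FPKM + 1) with one. The second scale understates the change of low genes. p-values were adjusted over all genes tested by the Benjamini-Hochberg method, with a threshold of 0.05. With 2 libraries against 2, an exact permutation test of a single gene cannot go below a two-sided p of 0.333, so none was run.

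The targeted gene and the sorted cells were checked first. Ncoa3 stood at 131 and 58.7 CPM in the controls and 39.8 and 24.5 CPM in SRC-3KO without a tumor. With a tumor it was at 37.7 and 45.4 FPKM in the controls and 47.5 and 27.7 FPKM in SRC-3KO, so the groups overlapped. The sources used here do not say which exons were deleted, so these levels do not test the labels. All 7 genes of the Treg list were detected in each of the 8 libraries. Control replicate 1 without a tumor stood apart, with 23941 genes detected against 15333 to 17915 in the other 3 libraries and Foxp3 at 230 CPM against 9.33 to 22.3 CPM. Control replicate 2 with a tumor stood apart by its neutrophil markers, which summed to 3578 FPKM against 0.180 to 4.85 FPKM in the other 3. In bulk RNA, fewer cells of a type and less RNA per cell cannot be told apart.

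In all, 3 members stood below the controls in both SRC-3KO libraries without a tumor, Csf2, Tbx21 and Ifng, and none stood above. With a tumor, Il17a, Il17f and Csf2 stood below in both SRC-3KO libraries, and Tnf and Il21 above. Csf2 was the 1 member that separated the groups downward in both states, with a control mean 7.90 times the SRC-3KO mean without a tumor and 7.77 times with one. No member passed the adjusted threshold in either state. Without a tumor 0 of 14860 genes passed by edgeR's quasi-likelihood test (0%), 472 had an unadjusted p under 0.05 (3.18%), and DESeq2 called 86. With a tumor limma called 14 of 12859 genes (0.109%), and 2119 had an unadjusted p under 0.05 (16.5%). Of the 14, 2 were higher in SRC-3KO and 12 lower. The lower ones include Cd79a and Igkc from a list of B cell markers, Jchain and Mzb1 from plasma cell markers, and Apoe from monocyte and macrophage markers.

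Of the 8 members, 7 passed the filter on low counts without a tumor, 0 of them with an unadjusted p under 0.05. Their median log2 change was -1.25 beside -0.02 over all genes tested. The 3 members below the controls stand beside a background of 21% of genes tested, and the 0 members above them beside 18.3%. With a tumor 6 of the 8 passed the minimum of 1 FPKM in 2 libraries, and 4 of these had an unadjusted p under 0.05, a share above the 16.5% of all genes. Their median log2 change was -1.09 beside -0.02 over all genes. Of the 6, 3 lay below both controls, where the background was 24.9% of genes, and 1 above, where it was 27.5%. Il17a and Il17f passed that minimum through the control libraries alone and so had to differ, which is why these counts are a description. Csf2 belonged to 360 of 11674 genes tested in both tables (3.08%) that were below both controls in each.

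**Figure D1:**
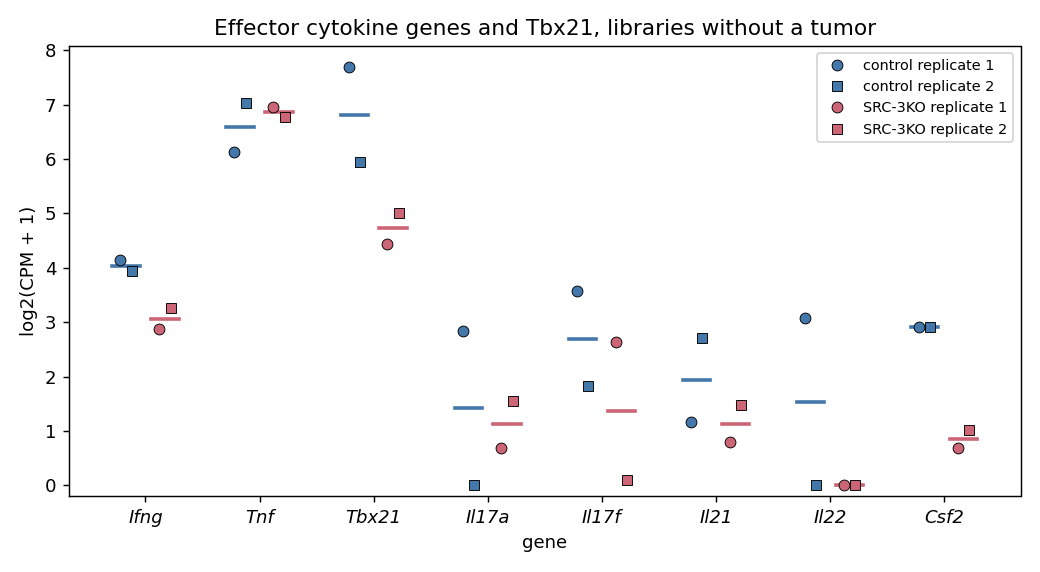
Level of the 8 genes in each library without a tumor, on the log2(CPM + 1) scale. Points are single libraries, blue for control and red for SRC-3KO, and bars are means of 2 on that scale. Csf2, Ifng and Tbx21 show both SRC-3KO points below both control points, and Il22 is above 0 in control replicate 1 alone.

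**Figure D2:**
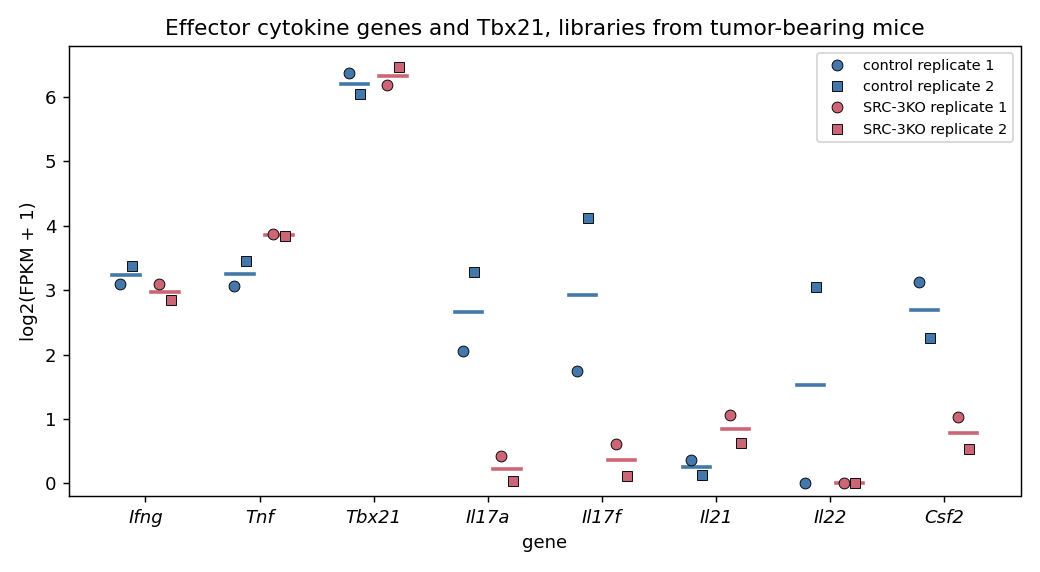
Level of the 8 genes in each tumor library, on the log2(FPKM + 1) scale, with points and bars as for the libraries without a tumor. Il17a, Il17f and Csf2 show both SRC-3KO points below both control points, and Tnf and Il21 show both above.

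Per unit of transcript length, the order of the members differed between the groups. Without a tumor the control means ran from Tnf at 60.5 ± 25.8 and Tbx21 at 53.5 ± 41.4 CPM per kb, through Csf2 at 8.15 ± 0.0315, to Il21 at 0.644 ± 0.581 CPM per kb (SD, n = 2). Tnf and Tbx21 did not differ beyond their spread, nor did Il22, Il17f and Il17a, whose means of 3.35, 3.34 and 2.62 CPM per kb had SDs of 4.74, 2.95 and 3.71. In SRC-3KO, Tnf led at 70.5 ± 6.89 CPM per kb, and Il17f, Il17a and Csf2 followed one another at 1.31 ± 1.81, 1.09 ± 0.792 and 1.03 ± 0.363 CPM per kb (SD, n = 2), again within their spread. With a tumor Tbx21 led both groups, at 73.4 ± 11.8 FPKM in the controls against 79.9 ± 10.9 FPKM in SRC-3KO (SD, n = 2). Tbx21 exceeded 70.5% to 96.4% of the detected genes per length without a tumor and 93.6% to 96.1% with one, so it was not low in these cells. Tnf exceeded 91.4% to 93.6% without a tumor and 65.6% to 78.2% with one. The ranges with and without a tumor rest on different units and different sets of detected genes, so they are not compared.

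Tbx21, the gene for T-bet, separated the groups without a tumor and overlapped with one. It stood at 206 and 60.4 CPM in the control libraries (5202 and 1459 counts) and at 20.7 and 31.3 CPM in SRC-3KO (568 and 973 counts). Both SRC-3KO libraries were lower, but the controls differed 3.41-fold from each other. The log2 change was -2.26 (SE 0.96, edgeR adjusted p = 0.910). Without control replicate 1 the log2 change was -1.14 (edgeR adjusted p = 0.188), and without control replicate 2, where the lone control is assumed to vary like the SRC-3KO pair, it was -2.95 (edgeR adjusted p = 0.00383, with 7434 of 16963 genes called). In the tumor state it was at 81.7 and 65.1 FPKM in the controls against 72.2 and 87.6 FPKM in SRC-3KO, a log2 change of 0.12 (SE 0.22, limma adjusted p = 0.789) that became -0.04 without control replicate 2 and -0.01 without SRC-3KO replicate 2.

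Ifng, the gene for IFN-gamma, stood at 16.6 and 14.4 CPM in the controls without a tumor (419 and 347 counts) and at 6.30 and 8.56 CPM in SRC-3KO (173 and 266 counts). The controls lay within 1.16-fold of each other, the SRC-3KO libraries within 1.36-fold, and the control mean was 2.08 times the SRC-3KO mean. The log2 change was -0.93 (SE 0.83, edgeR adjusted p = 0.910). With a tumor it was at 7.57 and 9.37 FPKM in the controls against 7.57 and 6.22 FPKM in SRC-3KO. Control replicate 1 and SRC-3KO replicate 1 were alike there, and the log2 change was -0.26 (SE 0.23, limma adjusted p = 0.586). Gm49751, a gene model that shares exons with Ifng on the same strand, had 0 counts without a tumor and 0.671 to 1.14 FPKM with one, so some tumor-state reads may be split between them.

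Tnf, the gene for the cytokine TNF, went the other way in the tumor state. It was at 7.36 and 9.90 FPKM in the controls against 13.6 and 13.3 FPKM in SRC-3KO. Both SRC-3KO libraries were higher, and they lay within 1.03-fold of each other. The SRC-3KO mean was 1.56 times the control mean, and the log2 change was 0.60 (SE 0.23, limma adjusted p = 0.287). It passed without control replicate 2, at 0.79 (limma adjusted p = 0.0414), when 2510 of 12460 genes did. Without a tumor Tnf stood at 69.3 and 129 CPM in control and 124 and 108 CPM in SRC-3KO (1750 to 3392 counts), and the groups overlapped. That log2 change was 0.35 (SE 0.77, edgeR adjusted p = 0.927). It was 0.77 without control replicate 2 (edgeR adjusted p = 0.0412, with 7434 of 16963 genes called) and -0.09 without control replicate 1.

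Il17a, the gene for IL-17A, was near 0 in the SRC-3KO tumor libraries. It was at 3.17 and 8.70 FPKM in the controls against 0.342 and 0.0254 FPKM in SRC-3KO. Both SRC-3KO libraries were lower, and the control mean was 32.3 times the SRC-3KO mean. The log2 change was -2.44 (SE 0.45, limma adjusted p = 0.144). Without a tumor Il17a was at 155 counts (6.14 CPM) in control replicate 1 and 0 in control replicate 2, which allows up to 0.124 CPM, and at 17 and 60 counts (0.619 and 1.93 CPM) in SRC-3KO. The SRC-3KO libraries lay between the controls, with a log2 change of -1.17 (SE 2.32, edgeR adjusted p = 0.922) that turned positive without control replicate 1.

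Il17f, the gene for the related cytokine IL-17F, had the same order with a tumor. It was at 2.34 and 16.4 FPKM in the controls against 0.524 and 0.0851 FPKM in SRC-3KO. Both SRC-3KO libraries were lower, although the controls differed 6.98-fold, and the control mean was 30.7 times the SRC-3KO mean. The log2 change was -2.57 (SE 0.77, limma adjusted p = 0.233). Without a tumor it stood at 10.97 and 2.53 CPM in control (277 and 61 counts) and at 5.25 and 0.0644 CPM in SRC-3KO (144 and 2 counts), a log2 change of -1.33 (SE 1.85, edgeR adjusted p = 0.910) that was 0.12 without control replicate 1. Although neighbours in the genome, Il17a and Il17f went opposite ways between the SRC-3KO libraries without a tumor, where replicate 1 held 17 counts of Il17a and 144 of Il17f and replicate 2 held 60 and 2.

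Il22, the gene for the epithelial repair cytokine IL-22, was seen in 1 control library of each state. Without a tumor it had 188 counts (7.45 CPM) in control replicate 1 and 0 in the other 3 libraries, which allows up to 0.124, 0.109 and 0.0965 CPM in control replicate 2 and SRC-3KO replicates 1 and 2. With a tumor it was at 7.25 FPKM in control replicate 2 and listed at 0 in the other 3. It was not tested in either state. Its near copy Iltifb followed it, at 14 counts in control replicate 1 without a tumor and 0.278 FPKM in control replicate 2 with one, so the division of reads between the copies is uncertain.

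Il21, the gene for IL-21, which helps B cells and sustains type 17 cells, was the lowest member per length in both control groups. Without a tumor it stood at 1.23 and 5.55 CPM in control (31 and 134 counts) and at 0.729 and 1.77 CPM in SRC-3KO (20 and 55 counts). The groups overlapped, with a log2 change of -1.25 (SE 1.43, edgeR adjusted p = 0.910) that was 0.07 without control replicate 2. With a tumor it was at 0.293 and 0.0990 FPKM in the controls against 1.09 and 0.541 FPKM in SRC-3KO. Both SRC-3KO libraries were higher, but it did not reach the minimum level and was not tested.

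Csf2, the gene for the granulocyte and macrophage growth factor GM-CSF, separated the groups without a tumor with closely matched controls. It stood at 6.53 and 6.50 CPM in control (165 and 157 counts) and at 0.619 and 1.03 CPM in SRC-3KO (17 and 32 counts). The exact Poisson 95% intervals of the counts, which cover counting error only, ran from 141 to 192 and 133 to 184 in control and from 9.90 to 27.2 and 21.9 to 45.2 in SRC-3KO. The controls lay within 1.01-fold of each other. The log2 change was -2.84 (SE 1.19, edgeR adjusted p = 0.910). It was -2.89 without control replicate 1 (edgeR adjusted p = 0.163), and -2.94 without control replicate 2 (edgeR adjusted p = 0.0382), a fit in which 7434 of 16963 genes passed.

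In the tumor state Csf2 stood at 7.74 and 3.77 FPKM in the controls against 1.03 and 0.449 FPKM in SRC-3KO. Both SRC-3KO libraries were again lower. The log2 change was -1.91 (SE 0.38, limma adjusted p = 0.156). Without control replicate 2 it was -2.35 (limma adjusted p = 0.0284, with 2510 of 12460 genes called) and without control replicate 1 it was -1.47 (limma adjusted p = 0.0848). Gm12223, antisense to Csf2, had 0 counts without a tumor and at most 0.0191 FPKM with one. In all alternatives run, 8 without a tumor and 10 with one, Csf2 kept its direction, from -3.69 to -2.41 and from -2.81 to -1.47.

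**Figure D3:**
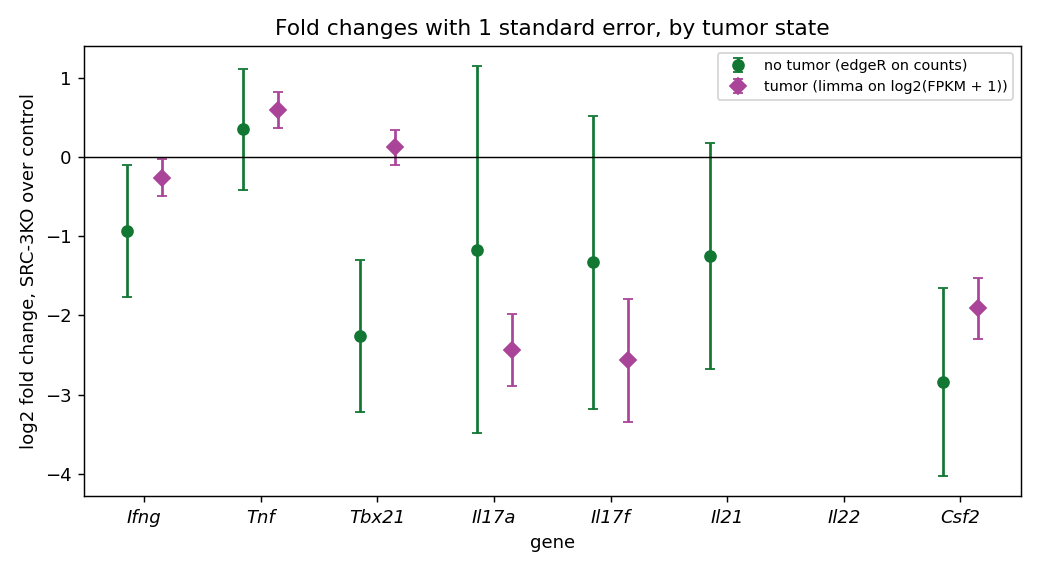
Log2 SRC-3KO/control for each gene tested, green for edgeR without a tumor and purple for limma with a tumor, with bars of 1 SE from 2 libraries per group. Il22 was tested in neither state and Il21 without a tumor alone. Csf2 lies at -2.84 and -1.91, and Tnf at 0.35 and 0.60.

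**Figure D4:**
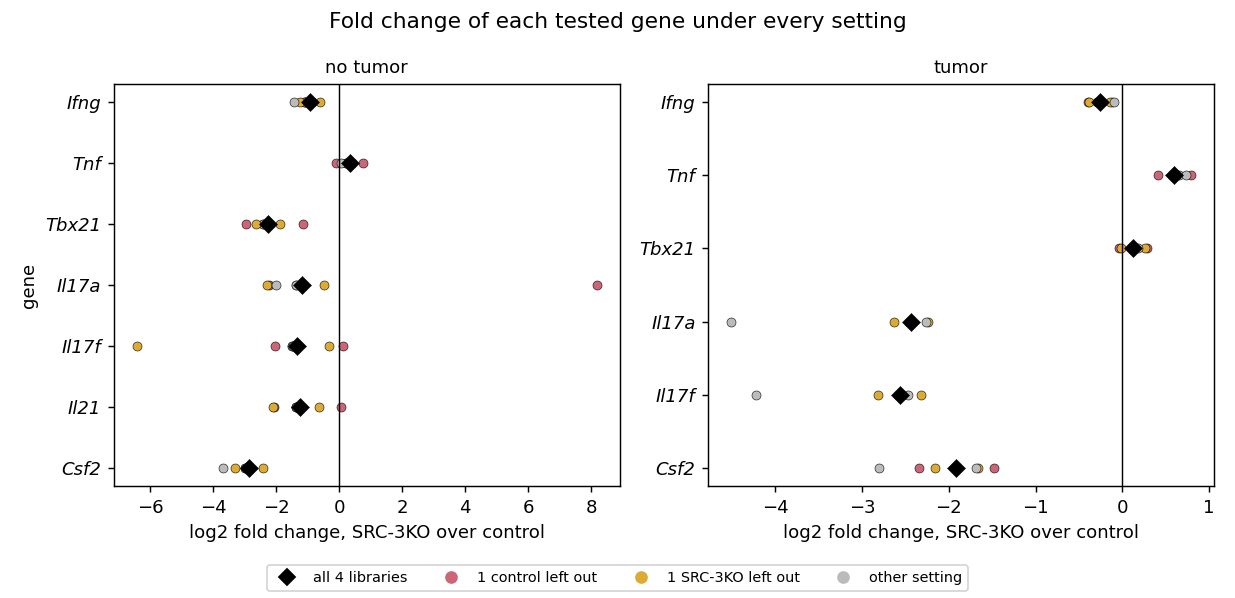
Log2 SRC-3KO/control for each gene tested under each alternative, with all 4 libraries as black diamonds and points for fits with 1 control left out, 1 SRC-3KO library left out or another setting. Points of Csf2 stay left of 0 in both states, and Il17a without a tumor reaches 8.18 when control replicate 1 is left out. With a tumor the points of Il17a and Il17f are left of 0, but both genes passed the minimum of 1 FPKM through the controls alone. They have no point for the fits with a tumor control left out.

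Some transcripts of other lymphocytes were, like Il17a, Il17f and Csf2, lower in both SRC-3KO tumor libraries than in either control. Of the 7 genes in a list for gamma-delta T cells and innate lymphoid cells, which are known sources of IL-17A, 5 were found by symbol. They summed to 56.5 and 25.1 FPKM in control and to 12.5 and 13.8 FPKM in SRC-3KO. Trdc, the constant segment of the delta receptor chain, stood at 12.4 and 3.81 FPKM in the controls against 0.961 and 1.06 FPKM in SRC-3KO. Trdv4, a variable segment of that chain, stood at 36.9 and 8.96 FPKM against 0.490 and 0.228 FPKM. Sox13, a factor of IL-17-making gamma-delta cells, stood at 1.09 and 0.874 FPKM against 0.0786 and 0.0131 FPKM, and Zbtb16 was listed at 0 in control replicate 2 and SRC-3KO replicate 2. The fifth gene found, Il7r, which other T cells carry too, did not follow them, at 6.06 and 11.4 FPKM in the controls against 10.9 and 12.5 FPKM, and made up most of the SRC-3KO sums. Within the controls, replicate 1 had more Trdc, Trdv4 and Csf2, and replicate 2 more Il17a and Il17f. The part of these cells in the result was not tested.

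The summed markers of B cells, plasma cells, monocytes and neutrophils were also lower in both SRC-3KO tumor libraries than in either control. So were those of CD8 T and natural killer cells and of conventional CD4 T cells. The 7 conventional CD4 T cell genes summed to 337 and 383 FPKM in control, against 220 and 180 FPKM, and the 7 Treg genes were on the other side, at 2205 and 1642 FPKM against 2568 and 2528 FPKM. The 7 B cell genes summed to 1663 and 2295 FPKM in control and to 273 and 252 FPKM in SRC-3KO. The 6 plasma cell genes summed to 279 and 347 FPKM against 242 and 215 FPKM. Most of each sum was Xbp1, which overlapped between the groups. Jchain stood at 43.5 and 61.7 FPKM against 0 and 0.581 FPKM, and Mzb1 at 16.9 and 19.1 FPKM against 0.0492 and 0.507 FPKM. The 7 neutrophil genes summed to 4.85 and 3578 FPKM against 1.5 and 0.180 FPKM. The 8 CD8 T and natural killer cell genes summed to 161 and 115 FPKM against 59.0 and 38.2 FPKM, with Ncr1 and Klrb1c at 0 in control replicate 1 and SRC-3KO replicate 1. That sum was mostly Nkg7, at 151 and 92.3 FPKM against 50.4 and 28.1 FPKM, while Cd8b1, a chain of the CD8 coreceptor, was higher in SRC-3KO, at 7.69 and 7.74 FPKM against 4.67 and 6.16 FPKM. The 8 monocyte and macrophage genes summed to 48.5 and 1526 FPKM against 12.2 and 9.27 FPKM. In control replicate 1 that sum was mostly the lipid carrier gene Apoe, at 39.8 FPKM, with Csf1r, Cd14 and Itgam at 0 and Lyz2, at 0.404 FPKM, below both SRC-3KO libraries. Their part in the differences of the members was not tested. Control replicate 1, where the neutrophil list summed to 4.85 FPKM with Ly6g and Csf3r at 0, held 3.17 FPKM of Il17a, 2.34 FPKM of Il17f and 7.74 FPKM of Csf2. The part of neutrophils in the levels of these genes was not tested.

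Without a tumor the gamma-delta and innate lymphoid list overlapped between groups, at 34.6 and 16.6 CPM in control and 27.8 and 22.0 CPM in SRC-3KO. Control replicate 1 held the highest sum of the CD8 T and natural killer cell list, 1369 CPM against 134 CPM in control replicate 2 and 558 and 376 CPM in SRC-3KO, with Ncr1 at 0. Nkg7 made up 1320 CPM of that sum, and Cd8b1 was lowest in that library, at 7.09 CPM against 24.7, 18.4 and 21.2 CPM. It was also the library with the most Tbx21, Il17a, Il17f and Il22. Csf2 stood at 6.53 CPM in control replicate 1 and at 6.50 CPM in control replicate 2. The part of CD8 T and natural killer cells in these levels was not tested.

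**Figure D5:**
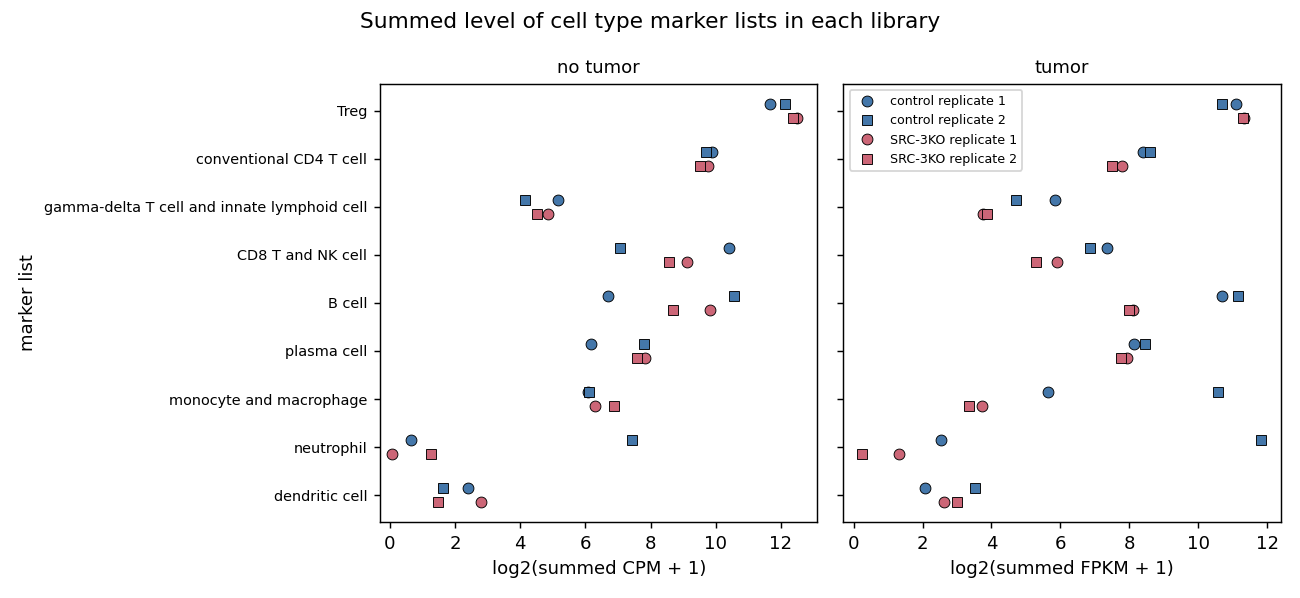
Summed level of each cell type marker list in each library, on the log2(summed CPM + 1) scale without a tumor and the log2(summed FPKM + 1) scale with one, blue for control and red for SRC-3KO. In the tumor state the Treg sums of both SRC-3KO libraries, 2568 and 2528 FPKM, are above those of the controls, 2205 and 1642 FPKM. The B cell, plasma cell, monocyte and neutrophil sums of both SRC-3KO libraries are below those of both controls. So are the conventional CD4, CD8 T and natural killer cell, and gamma-delta sums, while the dendritic cell sums overlap.

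Genes that switch on type 1 responses did not share 1 direction. Of 17 listed, 15 were tested without a tumor and 14 with one, and 0 passed the adjusted threshold in either direction in either state (edgeR and limma). The median log2 change was -0.85 without a tumor and 0.33 with one. Without a tumor 3 genes lay below both controls (21% of all genes did) and 3 above (18.3%), shares near the background. With a tumor 3 lay below (24.9%), 7 above (27.5%) and 4 had an unadjusted p under 0.05 (16.5%). The 7 include Il12rb1, where control replicate 1 and SRC-3KO replicate 1 were alike, at 72.48 and 72.49 FPKM. Il12rb2, the inducible chain of the IL-12 receptor, stood at 5.03 and 8.51 FPKM in the controls against 1.45 and 0.330 FPKM in SRC-3KO (log2 change -2.07, SE 0.40, limma adjusted p = 0.151). Stat4, the factor that IL-12 activates, was the reverse, at 22.5 and 22.4 FPKM in the controls against 36.1 and 33.1 FPKM in SRC-3KO (log2 change 0.60, limma adjusted p = 0.228). Tyk2, a kinase of that receptor, stood at 11.7 and 15.2 FPKM against 22.5 and 21.8 FPKM (log2 change 0.69, limma adjusted p = 0.233).

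Without a tumor the genes of that list with the smallest p were Runx3, Jak2 and Il27ra. Runx3, a partner of T-bet, stood at 97.9 CPM in control replicate 1 and at 6.62, 8.01 and 6.11 CPM in control replicate 2 and the SRC-3KO libraries, and its log2 change of -2.83 became 0.16 without control replicate 1. Jak2, a kinase of the IFN-gamma and IL-12 receptors, stood at 324 and 51.3 CPM in control and 29.8 and 42.3 CPM in SRC-3KO, a log2 change of -2.29 that was -0.43 without control replicate 1. Il27ra, a receptor chain for IL-27, stood at 88.8 and 61.2 CPM against 22.3 and 28.4 CPM, a log2 change of -1.45 (SE 0.76, edgeR adjusted p = 0.910).

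Most genes of the type 17 list that were tested lay above both controls in the tumor state, unlike Il17a and Il17f. Of its 15 genes, 13 were tested with a tumor, with 0 past the adjusted threshold in either direction (limma). Of the 13, 9 had an unadjusted p under 0.05 (16.5% of all genes did), 9 lay above both controls (27.5%) and 3 below (24.9%), and the median log2 change was 0.61. Nfkbiz, the gene for the co-regulator IkappaB-zeta, stood at 1.35 and 2.13 FPKM in the controls against 6.00 and 8.38 FPKM in SRC-3KO (log2 change 1.58, SE 0.29, limma adjusted p = 0.144). Rora, a nuclear receptor that promotes type 17 genes, stood at 10.1 and 9.82 FPKM in the controls against 21.9 and 20.2 FPKM in SRC-3KO (log2 change 1.01, SE 0.19, limma adjusted p = 0.144). Ccl20, the chemokine ligand of CCR6 on type 17 cells, was among the 3 lower genes, at 16.0 and 8.69 FPKM against 1.29 and 1.87 FPKM (log2 change -2.32, SE 0.34, limma adjusted p = 0.121). All 3 passed without control replicate 2, at limma adjusted p-values of 0.0297, 0.0297 and 0.0284 for Nfkbiz, Rora and Ccl20, a fit in which 2510 of 12460 genes passed. With the trend with exon length removed, the list median was 0.28 and the log2 change of Rora 0.61.

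Il23r, the receptor chain for IL-23 that marks type 17 cells, was named after its values were seen. Il23r stood at 1.80 and 1.21 FPKM in the controls against 0.321 and 0.428 FPKM in SRC-3KO, a log2 change of -0.86 (SE 0.25, limma adjusted p = 0.231). It reached the minimum of 1 FPKM through the controls alone and so had to differ, and it is 1 of the 9 genes with an unadjusted p under 0.05.

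Without a tumor 12 of the 15 type 17 genes were tested and 0 passed in either direction (edgeR). Of the 12, 4 lay below both controls (21% of all genes did) and 3 above (18.3%), and the median log2 change was 0.06. Ahr, the aryl hydrocarbon receptor that supports Il22, stood at 34.9 and 6.09 CPM in control and 3.90 and 2.19 CPM in SRC-3KO (log2 change -2.69, SE 1.16, edgeR adjusted p = 0.910). Ccr6, the CCL20 receptor, stood at 38.7 and 12.6 CPM against 10.1 and 3.64 CPM. Il6ra, a chain of the IL-6 receptor, stood at 33.8 and 9.77 CPM against 5.06 and 7.02 CPM. In each of these 3 genes control replicate 1 was the highest library, and both SRC-3KO libraries were below control replicate 2 as well. Without control replicate 1 the log2 changes were -0.93, -0.82 and -0.61 for Ahr, Ccr6 and Il6ra.

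Receptors for the member cytokines gave 0 calls in either state and direction (edgeR and limma), with medians of -0.28 over 11 tested of 14 without a tumor and 0.02 over 8 with one. Csf2ra, the alpha chain of the GM-CSF receptor, was low beside Csf2 without a tumor, at 32.9 and 6.95 CPM in control and 2.59 and 2.12 CPM in SRC-3KO (log2 change -3.01, SE 1.12, edgeR adjusted p = 0.910). Tnfrsf1a, a TNF receptor, stood at 34.3 and 11.1 CPM against 4.84 and 5.12 CPM. Without control replicate 1 the log2 changes of Csf2ra and Tnfrsf1a were -1.49 and -1.08. Ifngr1, a chain of the IFN-gamma receptor, was higher in SRC-3KO, at 228 and 94.9 CPM against 55.1 and 67.3 CPM. With a tumor Il21r, the IL-21 receptor, stood at 104 and 95.6 FPKM in the controls against 135 and 133 FPKM in SRC-3KO (log2 change 0.42, limma adjusted p = 0.332). Ifngr2, the other IFN-gamma receptor chain, stood at 10.9 and 23.0 FPKM against 9.13 and 10.6 FPKM, and Tnfrsf1a at 5.31 and 33.0 FPKM against 6.87 and 4.75 FPKM.

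Another list held 11 genes that act on the decay of cytokine mRNA or on the release of TNF from the cell surface. They do not all act in 1 direction, since the protein of Arid5a stabilizes such mRNA. In each state 10 of the 11 were tested and 0 were called in either direction (edgeR and limma). With a tumor 6 lay above both controls (27.5% of all genes did), 1 below (24.9%), and 6 had an unadjusted p under 0.05 (16.5%). The median log2 change was 0.54, and 0.10 once a trend with exon length was removed. Zfp36l1, whose protein binds AU-rich elements and speeds mRNA decay, stood at 38.4 and 44.0 FPKM in the controls against 83.2 and 85.1 FPKM in SRC-3KO (log2 change 1.02, SE 0.18, limma adjusted p = 0.141). Zc3h12a, the gene for the RNase Regnase-1, stood at 0.775 and 0.876 FPKM against 2.59 and 3.31 FPKM (log2 change 1.11, SE 0.24, limma adjusted p = 0.164). It reached the minimum of 1 FPKM through SRC-3KO alone and so had to differ, and its change was 1.71 with a pseudocount of 0.1. Zc3h12d, its relative, stood at 22.8 and 17.3 FPKM against 31.5 and 33.5 FPKM (log2 change 0.68, limma adjusted p = 0.235).

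Without a tumor 4 genes of the decay list lay below both controls (21% of all genes did) and 1 above (18.3%), with a median of -0.67. Rhbdf2, the partner of the TNF-releasing protease ADAM17, stood at 17.5 and 1.82 CPM in control and 0.473 and 1.35 CPM in SRC-3KO. Arid5a, a protein that stabilizes cytokine mRNA, stood at 186 and 55.0 CPM against 37.7 and 31.1 CPM. Without control replicate 1 their log2 changes went from -3.29 to -0.91 and from -1.73 to -0.60. Rc3h2, the gene for roquin-2, was the 1 above, at 10.97 and 19.4 CPM against 27.5 and 34.4 CPM (log2 change 1.17, SE 0.77, edgeR adjusted p = 0.910), a change that was 0.75 without control replicate 1.

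Other cytokines that T cells can make gave 8 tested genes of 10 without a tumor and 6 with one, 0 called in either direction (edgeR and limma), with medians of -0.38 and 0.10. Il9, the gene for a mast cell growth factor, stood at 3.05 and 1.49 CPM in control and 0 in both SRC-3KO libraries without a tumor, at least 20.8-fold lower than the control mean against the limit of 3 counts per library. Il2, the gene for the T cell growth factor that Tregs consume, stood at 6.46 and 53.4 CPM in control and 3.31 and 3.12 CPM in SRC-3KO (log2 change -3.05, SE 1.18, edgeR adjusted p = 0.910), and without control replicate 2 the change was -0.97. Il5, the gene for an eosinophil growth factor, was above both controls in both states, at 0.656 and 2.12 CPM against 0.436 and 0.0414 CPM without a tumor and at 2.19 and 3.46 FPKM against 0.304 and 0 FPKM with one. Its tumor-state log2 change was 1.72 (SE 0.30, limma adjusted p = 0.137), or 3.83 with a pseudocount of 0.1. It reached 1 FPKM through SRC-3KO alone and so had to differ. Il4, the gene for IL-4, stood at 3.66 and 3.32 FPKM in the controls against 1.34 and 2.77 FPKM in SRC-3KO, and Lta, next to Tnf in the genome, at 99.1 and 66.3 FPKM against 89.2 and 106 FPKM.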

How the data were processed

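Expression was measured in 8 libraries of splenic Tregs, 2 in each of 4 groups taken from the labels. The authors deposited raw read counts per gene for the 4 libraries without a tumor and FPKM values from StringTie, per the file and column names, for the 4 tumor libraries. The submitters' processing notes list FastQC, Trim Galore, STAR, featureCounts, edgeR and the build mm10, with no versions. The sources used here do not give the strand setting or the annotation release, so reads of a gene and its antisense partner may not be told apart.

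Counts were tested with edgeR 4.0.16 (R 4.3.3), by the quasi-likelihood test after filterByExpr with a minimum count of 10. TMM factors were 0.916 to 1.086 and the common dispersion was 0.791. Genes reaching 1 FPKM in 2 libraries were tested with limma 3.58.1, as log2(FPKM + 1) with an intensity trend and 5.37 degrees of freedom. p-values were adjusted by Benjamini-Hochberg over all genes tested, with a threshold of 0.05. Alternatives were DESeq2 1.42.0, median-of-ratios scaling, no filter, a pseudocount of 0.1, no intensity trend, a replicate block, each library left out and, chosen after seeing the data, removal of a trend with exon length (known for 99.94% and 99.89% of genes tested). The fits were also run on simulated data. The simulated counts had a lower dispersion than these counts, so that run does not show how the fits perform here.

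The members and gene lists were chosen with earlier results of these data known. Named genes were the 8 members and, of each pathway list and state, any gene called and the 3 with the smallest p. Positions came from GENCODE vM21 and promoters from RefSeq (GRCm38.p6), which matched 8 of 8 members. Depth was 24159217 to 31075452 counts, so 3 counts correspond to 0.0965 to 0.124 CPM, and is unknown for FPKM.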

Additional observations from a re-analysis of the deposited data

Results flagged for a closer look

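No member separated the groups in opposite directions in the 2 states. Of the pathway list genes tested in both states, 10 did: both SRC-3KO libraries lay on 1 side of both controls without a tumor and on the other side with one. The share of all genes that did so was not computed, so the 10 have no background beside them. Without a tumor 21% of all genes tested lay below both controls and 18.3% above. With a tumor these shares were 24.9% and 27.5%. The difference between states was not tested, and the states differ in unit.

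None of the 10 passed the adjusted threshold in either state (edgeR and limma). Of the 10, 8 were lower without a tumor and higher with one. In each of the 8, control replicate 1 was the highest library without a tumor. The controls lay far apart for Stat3, at 375 and 114 CPM against 73.5 and 80.4 CPM in SRC-3KO. They were closer for Il27ra, at 88.8 and 61.2 CPM against 22.3 and 28.4 CPM. Ahr, the aryl hydrocarbon receptor, had log2 changes of -2.69 and 0.83. Il6ra, an IL-6 receptor chain, had -1.76 and 0.66, Il27ra, an IL-27 receptor chain, had -1.45 and 0.56, and Il21r, the IL-21 receptor, had -1.66 and 0.42. Stat3, the gene for a factor that IL-6 and IL-23 activate, had -1.58 and 0.51, and Il12rb1, an IL-12 receptor chain, had -1.36 and 0.30. Il12rb1 barely separated the groups with a tumor, at 72.48 and 60.47 FPKM in the controls against 72.49 and 91.68 FPKM in SRC-3KO. Arid5a, which stabilizes cytokine mRNA, had -1.73 and 0.55. Zc3h12a, the gene for Regnase-1, which cleaves cytokine mRNA, also had the lower level without a tumor, at -1.34, and the higher with one, at 1.11.

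Ccl20, a chemokine of type 17 responses, was the reverse, with log2 changes of 1.10 without a tumor and -2.32 with one. It stood at 10.02 and 2.40 CPM in control and 15.1 and 10.3 CPM in SRC-3KO without a tumor. Irf1, the gene for a factor that IFN-gamma induces, was also the reverse, with 1.01 and -0.51.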

How the results depend on the processing

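Counts of calls moved most without control replicate 2, in each state. Genes called ranged from 0 to 7434 without a tumor and from 31 to 2510 with one when each library was left out. DESeq2 called 86 and no count filter 70 without a tumor. With a tumor a pseudocount of 0.1 and removal of the length trend called 7 each, no FPKM filter 1, and the replicate block 72. The tumor libraries share the numbers P1 and P2. Deviations of same-numbered libraries from their group means correlated at r = 0.0357 over 12859 genes. With 2 libraries per group this cannot tell whether same-numbered libraries share a sort or an animal. Under the replicate block Csf2 and Il17a reached limma adjusted p-values of 0.0655 and 0.0809. No paired analysis was possible without a tumor because those labels share no replicate number.

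With 1 library left out and no tumor, Tnf ran from -0.0877 to 0.77, Tbx21 from -2.95 to -1.14, Il17a from -2.29 to 8.18, Il17f from -6.41 to 0.12, Il21 from -2.10 to 0.0710 and Csf2 from -3.31 to -2.41. With a tumor Tnf ran from 0.41 to 0.79, Tbx21 from -0.0387 to 0.29 and Csf2 from -2.35 to -1.47. Il17a and Il17f gave no value without either tumor control, where they fail the minimum. A pseudocount of 0.1 gave -4.51 and -4.22 for them.

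List medians with 1 library left out, no tumor, were -2.19 to -0.87 for the members, -1.83 to 0.16 for the type 1 genes, -1.05 to -0.12 for the type 17 genes, -0.79 to 0.72 for the receptors, -0.78 to 0.41 for the other cytokines and -1.30 to -0.14 for the decay list. With a tumor they were -1.27 to -0.0565 for the members, -0.15 to 0.21 for the receptors, -0.38 to 0.21 for the other cytokines and 0.39 to 0.56 for the decay list. No count filter gave -1.31 for the type 17 list without a tumor, and a pseudocount of 0.1 gave -1.55 for the members with one. Removing the length trend gave -1.0035 for other cytokines without a tumor, and 0.28 and 0.10 for the type 17 and decay lists with one. With 1 library left out, Runx3 ran from -3.76 to 0.16 without a tumor, and Tnfrsf1a from -2.34 to 0.0909 and Lta from -0.0259 to 0.55 with one. The median of all genes without a tumor moved from -0.02 to -0.15 with median-of-ratios factors and -0.76 without a filter, and the directions of the 7 members tested did not change under either. The causes were not tested. Depth limits the members without a tumor to levels above 3 counts.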

Other observations

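The genes of the pathway and marker lists whose pattern over the 4 libraries of a state lay closest to each member were found by the root mean square difference of mean-centred log2 values, among 95 candidates without a tumor and 83 with one. This is a description over 4 libraries, with no test. In the tumor state Tnf was closest to the kinase Tyk2, at a difference of 0.05, and to Hif1a, the gene for a hypoxia factor, at 0.06. Tbx21 was closest to Il12rb1, a chain of the IL-12 receptor, at 0.09, and Il17a to Il12rb2, the other chain, at 0.32. Csf2 was closest to Nkg7, a granule protein of cytotoxic cells, at 0.20. Ifng was closest to Xbp1, a factor of secretory cells, at 0.10. Il17f had no neighbour closer than Gzma, a granzyme, at 0.60.

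Without a tumor Ifng was closest to Igfbp4 at 0.14 and to the coreceptor gene Cd4 at 0.15, Tnf to Adam17, the gene for the protease that releases TNF, at 0.18, and Tbx21 to Tcf7, a factor of resting T cells, at 0.18. Csf2 was closest to Il17rc, a chain of the IL-17 receptor, at 0.27, Il17a to Il17ra, the other chain, at 0.28, Il17f to Il3 at 0.34 and Il21 to Csf1r at 0.40.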
